A study of Mus musculus with 3 samples.

Results

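Potassium channel genes were examined in the prelimbic cortex (PrL) of mice in which neurons overexpressed a circular RNA or the protein it encodes. The set holds every protein-coding gene whose name begins with Kcn, followed by family letters and a number, and whose mean level over the 3 libraries was at least 0.1 FPKM (fragments per kilobase of gene length, scaled to the size of the library). Of 92 genes that matched by name, 77 passed this minimum, and these are 77 of the 20203 genes of the table at or above it. They comprise 36 voltage-gated, 12 inward rectifier, 10 two-pore and 7 calcium-activated genes and 12 auxiliary subunits. The choice used the mean level and no difference between groups.

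Each of the 3 groups was 1 bulk RNA-seq library of PrL tissue from male C57BL/6J mice, 6 to 8 weeks old at purchase, and the number of mice behind a library is not given. The CUMS oe-circ group received rAAV-hSyn-circFKBP8-bGH-polyA-CMV-EGFP, and the CUMS oe-pep group received rAAV-hSyn-peptide-3×Flag, continued as P2A-EGFP-hGH-polyA. The CUMS vehicle group received rAAV-hSyn-bGH-polyA-CMV-EGFP, all as serotype AAV/9 injected into both sides. The hSyn promoter limits the circular RNA or peptide to neurons, whereas the tissue sequenced held all cell types of the region. By their names, the oe-circ and vehicle vectors carry EGFP behind a CMV promoter and the oe-pep vector behind P2A. The oe-pep and vehicle vectors thus differ in more than the peptide. All 3 groups, vehicle included, were housed singly and exposed to CUMS, that is, chronic unpredictable mild stress, for 5 weeks, so no unstressed brain enters any comparison here. circFKBP8(5S,6) is a primate-specific circular RNA, and the mouse gene Fkbp8, at 78.0 FPKM in the oe-circ, 77.2 in the oe-pep and 80.5 in the vehicle library, therefore says nothing about delivery. With 1 library per group there were no replicates, no test and no p-value, and every difference below is one between libraries.

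Potassium channels let potassium leave or enter the cell along its gradient, and in cortical neurons they set the resting potential, end the action potential and limit repetitive firing. Voltage-gated channels open on depolarisation, inward rectifiers pass current mainly near the resting potential, two-pore channels carry leak current, and calcium-activated channels couple calcium entry to hyperpolarisation. Auxiliary subunits form no pore and alter the gating or trafficking of the pore-forming subunits. All pore-forming families share a short selectivity filter. In it the backbone of a triplet, usually glycine-tyrosine-glycine or glycine-phenylalanine-glycine, lines the ion path.

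That filter was looked for in the coding sequences of the members as a check of the classes. The codons of a threonine or serine, any residue, glycine, then tyrosine, phenylalanine or leucine, then glycine were present in 65 of 65 pore-forming members and in 0 of 12 auxiliary members. All 10 two-pore members carried it at 2 places, matching the pair of pore loops that names them, and of the other pore-forming members Kcna6 and Kcnh2 also had a second match. The stretches below are from GENCODE vM21 transcripts of the mouse GRCm38 genome and are shown because these 5 genes, drawn from the voltage-gated, inward rectifier and two-pore classes, carry differences described below. Each run is 39 bases of coding sequence, 5′ to 3′, and capitals mark the codons of the glycine, aromatic residue, glycine triplet.
Kcna5, chromosome 6, coding bases 1393 to 1431: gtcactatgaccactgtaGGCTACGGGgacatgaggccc
Kcna4, chromosome 2, coding bases 1561 to 1599: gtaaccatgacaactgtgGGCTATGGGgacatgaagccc
Kcnh5, chromosome 12, coding bases 1282 to 1320: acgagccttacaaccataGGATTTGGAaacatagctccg
Kcnj3, chromosome 2, coding bases 415 to 453: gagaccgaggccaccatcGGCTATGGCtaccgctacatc
Kcnk4 first loop, chromosome 19, coding bases 298 to 336: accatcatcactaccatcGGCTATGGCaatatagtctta
Kcnk4 second loop, chromosome 19, coding bases 625 to 663: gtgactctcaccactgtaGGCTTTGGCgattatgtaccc
Kcna4 matched Kcna5 at 33 of these 39 bases, the second Kcnk4 loop at 26 and the first at 19, and Kcnj3 and Kcnh5 at 19 each. Kcnh5 and the second loop of Kcnk4 have phenylalanine in the place of tyrosine.

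The libraries held 14413544 (oe-circ), 16410635 (oe-pep) and 18084058 (vehicle) reads in genes, recovered as whole numbers from the deposited FPKM. The median member had 494, 515 and 604 reads in the same libraries. The 95% intervals given below come from these reads and cover counting error only. Markers of cortical excitatory neurons summed to 406 FPKM in oe-circ, 365 in oe-pep and 338 in vehicle, so the markers of the labelled tissue were present. Markers of other regions were present as well and differed between the libraries. The 10 striatal projection neuron markers summed to 204, 524 and 641 FPKM (oe-circ, oe-pep, vehicle), the 8 basal forebrain cholinergic markers to 3.48, 10.8 and 25.3, and the 8 septal and hypothalamic markers to 7.31, 11.9 and 27.2. More than 2-fold below vehicle in oe-circ were 10 of 10, 8 of 8 and 7 of 8 of these lists, against 0, 4 and 6 in oe-pep. In bulk tissue, fewer cells of a type and less RNA per cell cannot be told apart.

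Summed over all 77 members, potassium channel RNA stood at 1054 FPKM in the oe-circ, 1017 in the oe-pep and 985 in the vehicle library. The makeup was much alike in the 3 libraries. Voltage-gated genes held 44.2% of the sum in oe-circ, 43.6% in oe-pep and 43.2% in vehicle, auxiliary subunits 22.1%, 22.4% and 22.7%, inward rectifiers 20.5%, 20.5% and 21.1%, two-pore genes 9.51%, 9.44% and 9.02%, and calcium-activated genes 3.71%, 3.97% and 3.93%. Levels were unevenly spread among members, with 66 at a mean of at least 1 FPKM, 32 at 10 or more and 9 at 30 or more. The 10 highest held 46.2% of the sum. At the top stood the Kvβ2 subunit gene Kcnab2, with a mean of 96.8 FPKM, followed by Kcnj4 at 83.0, Kcnh3 at 40.9, Kcnj10 at 39.1 and Kcnk1 at 39.0.

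**Figure D1:**
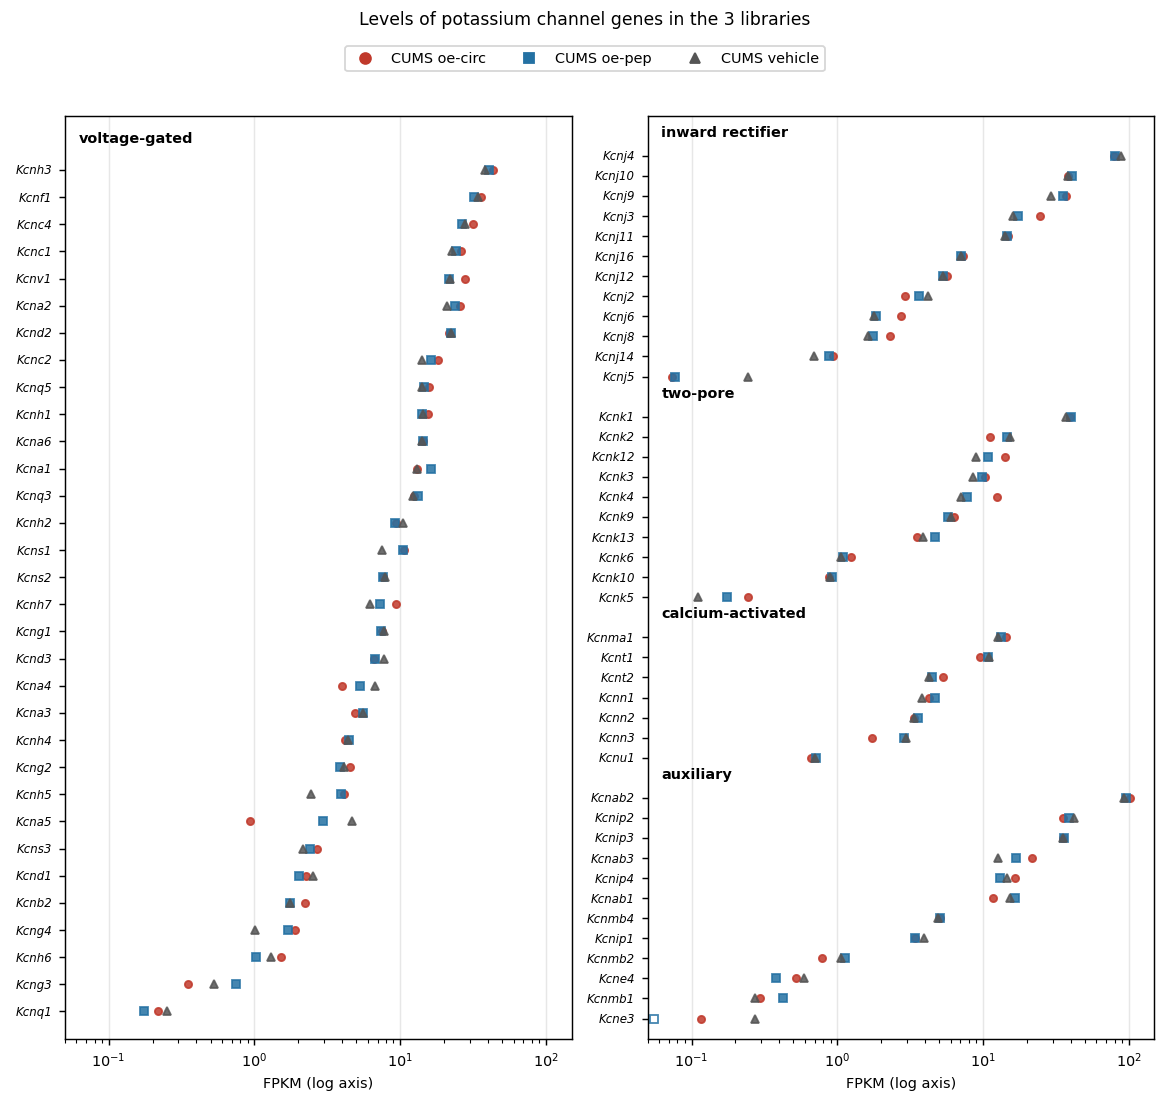
Levels of 73 of the 77 potassium channel genes in FPKM (log axis) in the CUMS oe-circ (circles), CUMS oe-pep (squares) and CUMS vehicle (triangles) libraries, 1 library each, ordered within each class by mean level; an open symbol at the left edge is a gene listed at 0. For most genes the 3 symbols nearly coincide, while Kcna5 spans 0.937 FPKM in oe-circ to 4.64 FPKM in vehicle.

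The first question was how the oe-circ library differed from the vehicle library in these genes. In oe-circ over vehicle, 1 of the 77 members, Kcna5, was more than 2-fold lower and 0 were more than 2-fold higher, where 6.42% and 3.5% of all genes tested passed those sizes. Many genes of the whole table rest on few reads. Among genes averaging 20 reads or more, 1 of 73 members was more than 2-fold lower and 0 higher, against 1.04% and 0.33% of genes at that depth. The median log2 fold change was 0.07 for the members and -0.00 for all genes tested, and 45 members lay above 0 (58.4%), against 48.3% of all genes tested.

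Smaller differences were more frequent. In oe-circ over vehicle the 95% interval of the ratio lay wholly past 5 to 4, in either direction, for 12 of the 73 members averaging 20 reads or more, 8 higher (1.26% of genes at that depth) and 4 lower (2.54%). Among the 58 members averaging 200 reads or more, a depth chosen after the data were seen, 7 were higher (1.13% of genes at that depth) and 3 lower (1.97%). At this depth 81.0% of the members lay within 0.5 of 0 on the log2 scale, against 97.2% of all genes so covered. For oe-pep over vehicle the same share was 98.3% of members against 98.5% of all genes.

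**Figure D2:**
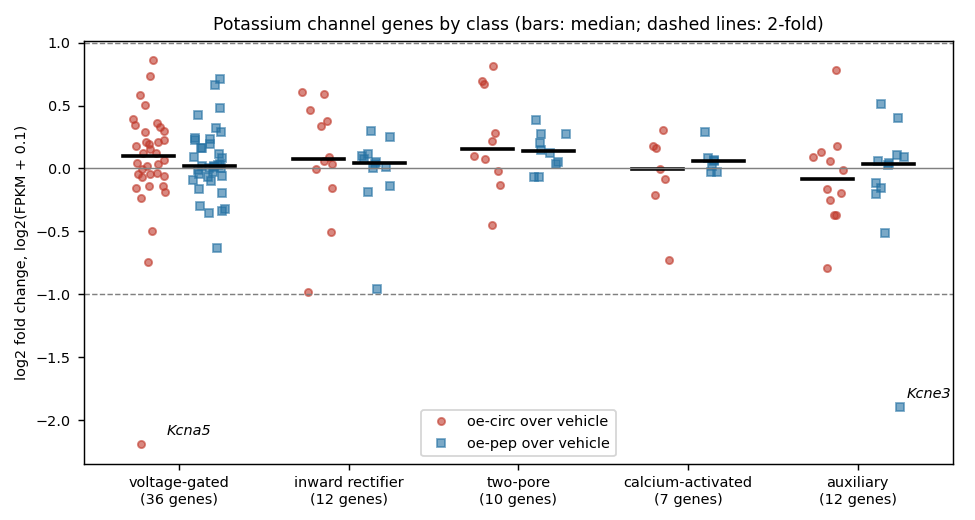
Log2 fold change on the log2(FPKM + 0.1) scale of each member by class, for oe-circ over vehicle (circles) and oe-pep over vehicle (squares), which share the vehicle library; black bars are class medians and dashed lines mark 2-fold. Kcna5 lies at -2.19 in oe-circ, Kcne3 at -1.90 in oe-pep on 0 and 9 reads, and all 5 class medians lie between -0.09 and 0.16.

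Among the voltage-gated genes, the Kv1 family holds delayed rectifier and A-type channels of axons. On the log2(FPKM + 0.1) scale it held the only voltage-gated member past 2-fold with a mean of more than 20 reads. Kcna5, which encodes Kv1.5, stood at 0.937 FPKM (39 reads) in oe-circ, 2.96 FPKM (142 reads) in oe-pep and 4.64 FPKM (246 reads) in vehicle. It was lowest in oe-circ and intermediate in oe-pep, and no 2 of the 3 Poisson intervals overlapped. It was 4.96-fold lower in oe-circ than in vehicle (interval 3.53 to 7.14), 1.57-fold lower in oe-pep than in vehicle (1.27 to 1.94) and 3.16-fold lower in oe-circ than in oe-pep (2.21 to 4.63). On the log2(FPKM + 0.1) scale these differences were -2.19, -0.63 and -1.56. The gene has a single coding exon at mm10 chr6:126532551-126535412 on the minus strand and overlaps no other annotated gene. Kcna5 is among the genes that the study tabulated from these same libraries, so its place there is not independent evidence.

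The direction and order of Kcna5 over the 3 libraries were those of the striatal, cholinergic, and septal and hypothalamic marker sums given above. In oe-circ these sums were 3.14-fold, 7.28-fold and 3.72-fold lower than in vehicle, and in oe-pep 1.22-fold, 2.35-fold and 2.28-fold lower. No marker of these lists was at 0 in any library, and their part in the Kcna5 difference was not tested. Oligodendrocyte markers summed to 732, 1279 and 861 FPKM and astrocyte markers to 324, 361 and 316 FPKM (oe-circ, oe-pep, vehicle), an order unlike that of Kcna5.

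**Figure D3:**
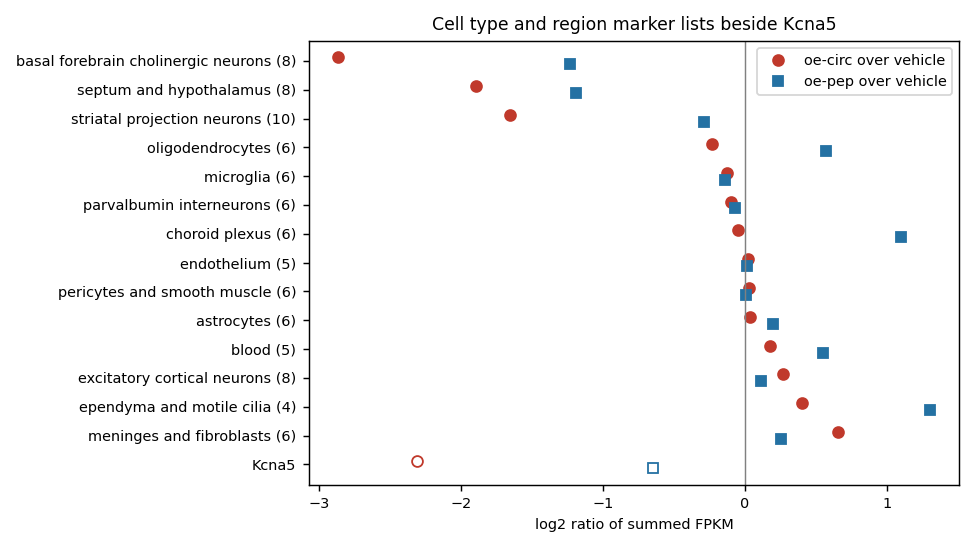
Log2 ratio of the summed FPKM of each marker list (number of genes in parentheses) for oe-circ over vehicle (circles) and oe-pep over vehicle (squares), with Kcna5 as open symbols in the bottom row. The cholinergic, septal and hypothalamic and striatal lists lie furthest to the left for oe-circ, at -2.86, -1.89 and -1.65, and Kcna5 lies to the left in both comparisons.

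The neighbours of Kcna5 did not share its difference. Kcna1 lies 105 kb and Kcna6 a further 61.9 kb along chromosome 6, both on the minus strand as Kcna5 is. Kcna1, which encodes the axonal Kv1.1 subunit, stood at 13.0 FPKM in oe-circ, 16.4 in oe-pep and 13.1 in vehicle. It was highest in oe-pep, where it was above vehicle by an interval of 1.16-fold to 1.36-fold, in the library with the highest oligodendrocyte marker sum, whose part in this was not tested. Kcna6 stood at 14.4, 14.4 and 14.1 FPKM in the same order of libraries. On chromosome 3, Kcna3 had 4.88, 5.59 and 5.57 FPKM and Kcna2, the Kv1.2 subunit gene and the highest of the family, had 25.8, 23.7 and 21.1 FPKM.

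Kcna4, which encodes the A-type channel Kv1.4, showed a smaller difference of the same order as Kcna5. It stood at 4.0 FPKM (281 reads) in oe-circ, 5.32 FPKM (431 reads) in oe-pep and 6.75 FPKM (604 reads) in vehicle. It was 1.69-fold lower in oe-circ than in vehicle (interval 1.46 to 1.95) and 1.27-fold lower in oe-pep than in vehicle (1.12 to 1.44). The remaining Kv1 gene on chromosome 3, Kcna10, lies next to Kcna2, had 1, 0 and 6 reads and fell under the minimum. The median log2 fold change of the 6 Kv1 members was -0.10 in oe-circ over vehicle and 0.02 in oe-pep over vehicle.

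**Figure D4:**
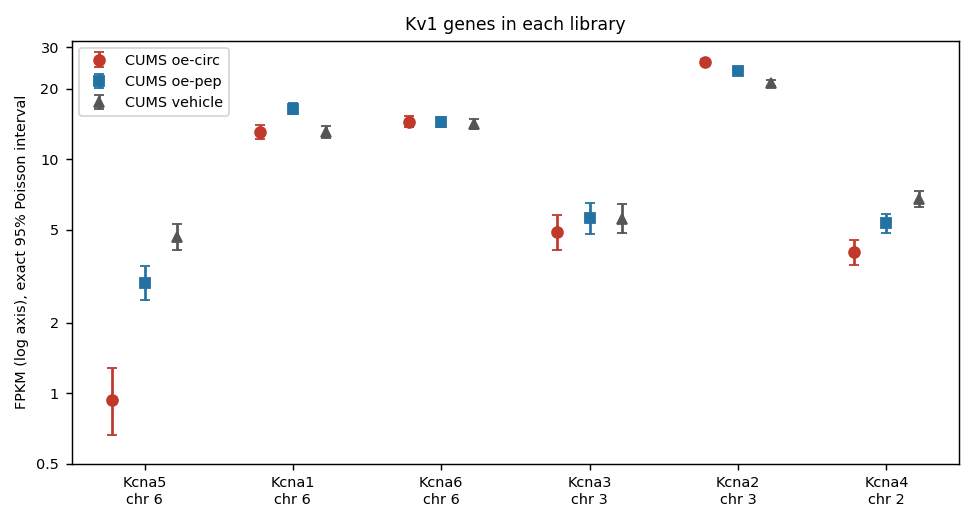
FPKM (log axis) of the 6 Kv1 members in the CUMS oe-circ (circles), CUMS oe-pep (squares) and CUMS vehicle (triangles) libraries with exact 95% Poisson intervals of the reads as bars, 1 library each. Kcna5 and Kcna4 are lowest in oe-circ and highest in vehicle, while Kcna6, on the same chromosome as Kcna5, stays at 14.1 to 14.4 FPKM.

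Among the Kv3 genes, whose fast delayed rectifier channels serve rapid firing, the 3 described here lay above vehicle in oe-circ. Kcnc2 had 18.2 FPKM in oe-circ, 16.3 in oe-pep and 14.2 in vehicle. Kcnc1 stood at 26.3, 24 and 22.6 FPKM, and Kcnc4 at 31.7, 26.8 and 28.0. Each was thus highest in oe-circ, by at most 1.28-fold over vehicle. Markers of parvalbumin interneurons, which are rich in Kv3 channels, summed to 135, 137 and 144 FPKM in the same order. Pvalb itself, however, had 54.9, 49.1 and 39.9 FPKM, 1.38-fold over vehicle in oe-circ (interval 1.248 to 1.52), the direction of these Kv3 genes. Syt2, at 8.73, 8.51 and 7.07 FPKM, and Erbb4, at 7.26, 7.20 and 6.66 FPKM, also lay above vehicle in oe-circ. Lower in oe-circ were Gad1, at 50.8, 52.7 and 59.7 FPKM, Lhx6, at 4.46, 5.22 and 6.09 FPKM, and Tac1, at 8.53, 14.6 and 24.7 FPKM, which the striatal list also holds. The part of these markers in the Kv3 values was not tested.

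The 3 Kv4 genes, which carry the somatodendritic A-type current, lay slightly below vehicle in oe-circ. Kcnd2 had 21.5 FPKM in oe-circ, 22.2 in oe-pep and 22.2 in vehicle, Kcnd3 had 6.57, 6.76 and 7.75, and Kcnd1 had 2.27, 2.02 and 2.51. Their largest difference in oe-circ was 1.18-fold, for Kcnd3. The Kv2 delayed rectifier gene Kcnb2 stood at 2.24, 1.76 and 1.74 FPKM.

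Of the Kv7 genes, whose family carries the muscarine-sensitive M-current, Kcnq3 had 12.5 FPKM in oe-circ, 13.4 in oe-pep and 12.3 in vehicle, and Kcnq5 had 15.8, 14.5 and 14.2. Both were close to level, with oe-circ above vehicle by 0.02 and 0.15 on the log2 scale. The low Kcnq1 had 13, 12 and 19 reads and shares its locus with the antisense transcript Kcnq1ot1, which had 123, 196 and 198 reads.

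In the ether-à-go-go group, Kcnh5 and Kcnh7 were higher in oe-circ. Kcnh5 (EAG2) stood at 4.15 FPKM (245 reads) in oe-circ, 3.93 FPKM (267 reads) in oe-pep and 2.45 FPKM (184 reads) in vehicle. Both transgene libraries lay above vehicle and close to each other, by 1.69-fold in oe-circ (interval 1.39 to 2.06) and by 1.6-fold in oe-pep (1.32 to 1.95). Kcnh7 (ERG3) stood at 9.31 FPKM (2063 reads), 7.24 FPKM (1845 reads) and 6.18 FPKM (1742 reads) in oe-circ, oe-pep and vehicle, a stepwise order with 1.51-fold over vehicle in oe-circ (1.41 to 1.61) and 1.17-fold in oe-pep (1.10 to 1.3). The Kcnh7 locus overlaps Gca on the opposite strand, which had 204, 252 and 239 reads.

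Kcnh3 (ELK2), the highest voltage-gated gene, had 43.7, 40.8 and 38.2 FPKM in oe-circ, oe-pep and vehicle, and Kcnh1 (EAG1) had 15.6, 14.2 and 14.4. Kcnh2 (ERG1) lay the other way, at 9.31, 9.27 and 10.4 FPKM. Kcnh4 (ELK1) had 4.19, 4.42 and 4.37 FPKM and Kcnh6 (ERG2) had 1.53, 1.03 and 1.31. The group as a whole therefore had no common direction in either comparison.

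The silent subunits form channels only together with Kv2 subunits. Among these 9 members Kcng4 stood out, with 1.91 FPKM (106 reads) in oe-circ, 1.71 FPKM (109 reads) in oe-pep and 1.01 FPKM (71 reads) in vehicle. It was 1.90-fold above vehicle in oe-circ (interval 1.39 to 2.60) and 1.70-fold in oe-pep (1.247 to 2.32). The oe-pep interval fell just short of 5 to 4, and the 2 transgene libraries did not differ beyond counting error. Kcns1 had 10.7, 10.5 and 7.53 FPKM in the same order and Kcnv1 27.9, 21.7 and 22.1, whereas Kcnf1, the most abundant silent subunit gene, had 35.9, 31.9 and 34.2 FPKM. The other 5 were closer to level or low. Kcng1 had 7.52, 7.40 and 7.73 FPKM, Kcng2 4.51, 3.86 and 4.12, Kcns2 7.59, 7.62 and 7.84, and Kcns3 2.67, 2.42 and 2.15. The low Kcng3 had 17, 42 and 33 reads. In oe-circ over oe-pep it lay at -0.92 on the log2(FPKM + 0.1) scale, which shrinks the difference of so low a gene.

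Among the inward rectifiers the largest differences were in the Kir3 genes, which encode the G protein-gated channels that open downstream of GABA-B and other Gi-coupled receptors. Kcnj3 (GIRK1) stood at 24.5 FPKM (1856 reads) in oe-circ, 17.3 FPKM (1515 reads) in oe-pep and 16 FPKM (1544 reads) in vehicle. The oe-circ library lay apart from the other 2, at 1.53-fold over vehicle (interval 1.43 to 1.64) and 1.41-fold over oe-pep (1.32 to 1.51). Kcnj6 (GIRK2) had the same order on fewer reads, 2.74 FPKM (304 reads), 1.85 FPKM (237 reads) and 1.78 FPKM (252 reads), and was likewise 1.53-fold above vehicle in oe-circ (1.29 to 1.82). Kcnj9 (GIRK3) had 37.3, 35.1 and 29.5 FPKM, so that 3 of the 4 Kir3 members were higher than vehicle in oe-circ. In oe-pep Kcnj6 did not differ from vehicle beyond counting error (ratio 1.04, interval 0.867 to 1.246).

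The fourth Kir3 gene, Kcnj5 (GIRK4), lay just inside the minimum and went the other way. It had 0.0734 FPKM (5 reads) in oe-circ, 0.0765 FPKM (6 reads) in oe-pep and 0.242 FPKM (21 reads) in vehicle. Both transgene libraries were lower than vehicle, by 3.30-fold in oe-circ (interval 1.21 to 11.2) and 3.17-fold in oe-pep (1.24 to 9.59). On the log2(FPKM + 0.1) scale, which shrinks the difference of so low a gene, the values were -0.98 and -0.96, short of 2-fold. The study tabulated Kcnj5 from these libraries too. The septal and hypothalamic markers, at 7.31, 11.9 and 27.2 FPKM, were also lower in both transgene libraries. So were the cholinergic markers, at 3.48, 10.8 and 25.3 FPKM, and the striatal markers, at 204, 524 and 641 FPKM. The part of these lists was not tested.

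The remaining inward rectifiers had no common direction. Kcnj4 (Kir2.3), the most abundant pore-forming gene of the set, had 79.6 FPKM in oe-circ, 80.7 in oe-pep and 88.8 in vehicle, and Kcnj2 (Kir2.1) had 2.92, 3.65 and 4.18. Kcnj10 (Kir4.1), the main glial inward rectifier, had 38.3, 40.6 and 38.4 FPKM, and its partner Kcnj16 had 7.26, 7.08 and 7.07. Kcnj11, the pore of neuronal ATP-sensitive channels, had 14.8, 14.6 and 14.2 FPKM. Of these, Kcnj2 lay furthest from vehicle, 1.43-fold lower in oe-circ (interval 1.22 to 1.69). Kcnj8, the Kir6.1 gene of pericytes, had 85, 75 and 77 reads, at 2.29, 1.76 and 1.63 FPKM, 1.40-fold over vehicle in oe-circ (interval 1.02 to 1.94). The pericyte and smooth muscle markers summed to 72.8, 71.5 and 71.3 FPKM, and the meningeal and fibroblast markers to 10.8, 8.16 and 6.85. The part of these lists in the Kcnj8 difference was not tested. Kcnj12 had 5.62, 5.34 and 5.29 FPKM and Kcnj14 0.936, 0.879 and 0.696.

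At the pseudocount and minimum used here, the two-pore class had the highest class median in both comparisons with vehicle, 0.16 in oe-circ and 0.14 in oe-pep. Its members went in both directions. Kcnk4, which encodes the mechanosensitive leak channel TRAAK, stood at 12.4 FPKM (310 reads) in oe-circ, 7.80 FPKM (224 reads) in oe-pep and 7.03 FPKM (223 reads) in vehicle. The oe-circ library was set apart from both others, by 1.77-fold over vehicle (interval 1.48 to 2.11) and 1.59-fold over oe-pep (1.34 to 1.90). Kcnk2, which encodes its close relative TREK-1, was lowest in oe-circ, at 11.2 FPKM (809 reads) against 14.7 FPKM (1217 reads) in oe-pep and 15.4 FPKM (1410 reads) in vehicle, 1.37-fold lower in oe-circ than in vehicle (1.26 to 1.5). A processed pseudogene within Kcnk2 on the same strand, Pdcd5-ps, had 87, 128 and 121 reads and could share reads with it.

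Kcnk12 (THIK-2), a subunit with little current of its own, had 14.2 FPKM (400 reads) in oe-circ, 10.8 FPKM (349 reads) in oe-pep and 8.90 FPKM (319 reads) in vehicle, a stepwise order with 1.59-fold over vehicle in oe-circ (interval 1.37 to 1.85). Kcnk1 (TWIK-1), the highest two-pore gene, had 39.6, 40.3 and 37.0 FPKM. The acid-sensitive leak channel gene Kcnk3 (TASK-1) had 10.4, 9.84 and 8.55 FPKM and Kcnk9 (TASK-3) had 6.36, 5.77 and 6.04. Kcnk13 (THIK-1), a leak channel of microglia, had 3.53, 4.72 and 3.89 FPKM while the microglial markers summed to 142, 141 and 155 FPKM. The part of these markers in the Kcnk13 values was not tested. The lowest members of the class were Kcnk6, with 1.24, 1.09 and 1.05 FPKM, Kcnk10, with 0.877, 0.919 and 0.893, and Kcnk5, with 12, 10 and 7 reads.

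The calcium-activated class, which here includes the sodium-activated Slo2 genes, had a median within 0.01 of 0 in oe-circ, whose sign turned with the scaling of the libraries. Kcnn3 (SK3), a small-conductance calcium-activated channel, was the exception. It stood at 1.74 FPKM (264 reads) in oe-circ, 2.88 FPKM (504 reads) in oe-pep and 2.94 FPKM (569 reads) in vehicle. The oe-pep and vehicle libraries were alike within counting error and oe-circ lay below both, by 1.69-fold against vehicle (interval 1.46 to 1.97) and 1.66-fold against oe-pep (1.43 to 1.93). Its relatives Kcnn1 (SK1), with 4.26, 4.66 and 3.79 FPKM, and Kcnn2 (SK2), with 3.35, 3.56 and 3.36 FPKM, did not follow it.

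Kcnma1, the gene of the large-conductance BK channel and the highest of the class, had 14.3 FPKM in oe-circ, 13.3 in oe-pep and 12.6 in vehicle. The sodium-activated channel genes Kcnt1 (Slack) and Kcnt2 (Slick) lay in opposite directions in oe-circ, Kcnt1 with 9.51, 10.8 and 11.0 FPKM and Kcnt2 with 5.31, 4.46 and 4.29. Kcnu1 (Slo3), known as a channel of sperm, had 0.662, 0.719 and 0.708 FPKM on 36, 45 and 49 reads.

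Among the auxiliary subunits, the Kvβ genes, whose products bind Kv1 channels, diverged. Kcnab3 (Kvβ3) stood at 21.8 FPKM (909 reads) in oe-circ, 16.7 FPKM (802 reads) in oe-pep and 12.7 FPKM (671 reads) in vehicle. It was higher than vehicle by 1.72-fold in oe-circ (interval 1.56 to 1.91) and by 1.32-fold in oe-pep (1.19 to 1.47). Kcnab1 (Kvβ1), which confers inactivation on Kv1 channels, was lower in oe-circ, at 11.8 FPKM (1472 reads) against 16.5 FPKM (2372 reads) in oe-pep and 15.3 FPKM (2431 reads) in vehicle. Its interval against vehicle, 1.22-fold to 1.39-fold lower, reached inside 5 to 4, and that against oe-pep, 1.31-fold to 1.5-fold lower, did not. Kcnab2 (Kvβ2) lay between them at 102 FPKM in oe-circ, 96.4 in oe-pep and 92.5 in vehicle.

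The KChIP genes, calcium-binding subunits of Kv4 channels, had small differences. Kcnip2 had 35.5 FPKM in oe-circ, 39.0 in oe-pep and 42.3 in vehicle, Kcnip3 had 35.2, 36.2 and 35.5, and Kcnip4 had 16.5, 13.0 and 14.6. Kcnip2, the KChIP most abundant in vehicle, thus lay in the direction of the Kv4 genes, by 1.19-fold in oe-circ (interval 1.12 to 1.27). The brain BK subunit gene Kcnmb4 was level at 5.09, 5.03 and 4.88 FPKM. Kcnip1, at 3.44, 3.41 and 3.95 FPKM, overlaps the BK subunit gene Kcnmb1 on the opposite strand, which had 18, 30 and 21 reads, and Kcnmb2 had 36, 59 and 61 reads. The class median was -0.09 in oe-circ, a sign that turned when genes with low values were left out, and 0.04 in oe-pep.

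The MinK-related subunits were barely detected. Kcne3 had 3 reads in oe-circ, 0 in oe-pep and 9 in vehicle, and Kcne4 had 20, 17 and 29. Kcne3 was the only member more than 2-fold lower in oe-pep than in vehicle, at least 2.71-fold lower when 3 reads are taken as the limit of a library with 0 reads (the exact interval, which also covers the error of the 9 vehicle reads, starts at 1.79-fold), and the study's own tables also hold it. In oe-circ its ratio to vehicle was 0.424 with an interval of 0.0738 to 1.70, which does not separate the libraries.

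**Figure D5:**
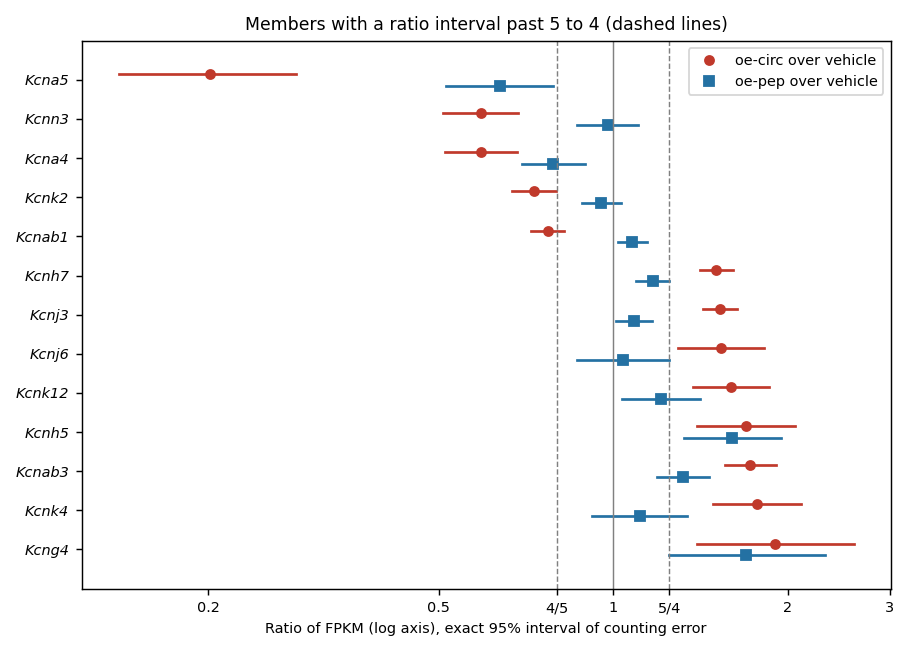
Ratio of FPKM (log axis) with exact 95% intervals of counting error for the 13 members averaging 20 reads or more whose interval lay wholly past 5 to 4 (dashed lines) in any of the 3 comparisons, for oe-circ over vehicle (circles) and oe-pep over vehicle (squares). Kcna5 lies furthest left, at 0.202 in oe-circ, and Kcnh5 and Kcng4, at 1.6 and 1.70, lie furthest right in oe-pep.

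The second question was whether the oe-pep library gave the same picture. In oe-pep over vehicle, 1 of 77 members was more than 2-fold lower (4.93% of all genes tested) and 0 were more than 2-fold higher (4.54%), and the 1 was Kcne3. Among genes averaging 20 reads or more, 0 of 73 members were past 2-fold in either direction, against 0.385% lower and 0.364% higher of genes at that depth. The interval lay wholly past 5 to 4 for 1 of these 73 on the higher side, Kcnh5 (1.35% of genes at that depth), and for 1 on the lower side, Kcna5 (1.06%). Kcng4 fell just short on the higher side, with an interval that started at 1.247-fold. At 200 reads or more the interval lay past 5 to 4 for 1 of 58 members on the higher side (1.0%) and 0 on the lower (0.705%). The median was 0.04, with 51 members above 0 (66.2%, against 49.0% of all genes tested). Both comparisons share the vehicle library, so a high or low count there enters both, and likeness between them is not given as a result.

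The direct comparison of the 2 transgene libraries does not use vehicle. In oe-circ over oe-pep, 1 member, Kcna5, was more than 2-fold lower (6.26% of all genes tested). Kcne3 was counted more than 2-fold higher (4.31%), but on 3 reads against 0, for which no fold is given. Of members averaging 20 reads or more, 1 of 73 was more than 2-fold lower (0.921% of genes at that depth) and 0 higher (0.33%). The interval lay wholly past 5 to 4 on the higher side for 2 of the 73, Kcnj3 and Kcnk4 (0.893% of genes at that depth), and on the lower side for 3, Kcna5, Kcnn3 and Kcnab1 (2.77%). At 200 reads or more, 2 of 58 lay past 5 to 4 on the higher side (0.59%) and 2 on the lower (2.37%), and 46 of all 77 members had a difference above 0 (59.7%, against 49.2% of all genes tested). Kcnj6, at 1.48-fold higher in oe-circ than in oe-pep (interval 1.24 to 1.76), fell just short. The genes that set oe-circ apart from oe-pep were thus drawn from all 5 classes, at 1 gene in each.

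The sum of the 8 cortical excitatory markers was 1.20-fold above vehicle in oe-circ and 1.08-fold in oe-pep, with a median log2 fold change of 0.33 and 0.12 and 0 of 8 past 2-fold. Of the 8, Tle4 lay the other way, at 15.4 FPKM in oe-circ, 18.4 in oe-pep and 18.3 in vehicle. The 8 members with an interval past 5 to 4 on the higher side in oe-circ exceeded that sum, at 1.51-fold to 1.90-fold. The part of these marker differences in the channel genes was not tested.

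Genes that work with these channels without bearing the name were also counted, from a list of 20 binding partners and anchoring proteins. Of 19 that passed the minimum, 0 were more than 2-fold apart in any of the 3 comparisons, and the medians were 0.10 (oe-circ over vehicle), 0.00 (oe-pep over vehicle) and 0.04 (oe-circ over oe-pep). Cntnap2, which clusters Kv1 channels beside the node of Ranvier, had 9.42 FPKM in oe-circ, 9.35 in oe-pep and 11.4 in vehicle, and its partner Cntn2 had 15.9, 22.3 and 17.2. Cntn2, like Kcna1, was highest in oe-pep. The Kv4 partners Dpp6, with 17.3, 15.2 and 17.5 FPKM, and Dpp10, with 11.8, 10.05 and 10.5, were close to level, as was the Kv2 partner Amigo1 at 22.1, 21.9 and 20.1. Abcc8, the sulfonylurea receptor that pairs with Kcnj11, had 3.47, 3.36 and 2.64 FPKM.

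Gene structure and promoters were described without a test. A single coding exon was found in 14 of the 65 pore-forming members, 9 of them voltage-gated and 5 inward rectifier. RefSeq promoter windows of GRCm38.p6 were matched for 54 members, with 78 start sites. Each window was cut to the same length directly before the start site, for Kcna5 chromosome 6 bases 126535556 to 126535805 on the minus strand. The members' windows had a median GC content of 59.0% and a median number of CpG dinucleotides of 8, against 52.4% and 6 over all 32851 windows. Searched on both strands, the GC box letters GGGCGG were present in 46.2% of the members' windows and 32.7% of all windows, TATAAA in 2.56% and 12.4%, CCAAT in 30.8% and 33.8%, and the E box CACGTG in 6.41% and 6.02%. The cyclic AMP response element TGACGTCA was in 0 of 78 members' windows and 1.55% of all.

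Where the annotation lets genes share reads, 36 members overlapped another gene on the opposite strand and 16 on the same strand, while 38 overlapped none. The library kit keeps strand, but the setting used in counting was not stated, so reads of opposite-strand neighbours may have entered these counts. Kcna5, Kcna4, Kcnh5, Kcnk4, Kcnk12, Kcng4 and Kcnn3 overlapped no other gene. Kcnj3 overlaps the lincRNA Gm26794, which had 37, 37 and 22 reads in oe-circ, oe-pep and vehicle, far fewer than its own 1856, 1515 and 1544. Kcnj6 overlaps the antisense gene AC165271.1, which had 69, 59 and 61 reads against 304, 237 and 252 of Kcnj6, a larger share.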

How the data were processed

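The authors deposited 1 table of FPKM per gene for the 3 PrL libraries. Per the submitters' processing notes, reads were trimmed with cutadapt 2.5, aligned to mm10 with HISAT2 2.1.0 and counted with featureCounts 1.6.3. FPKM times gene length gave whole multiples of 1 step per library (within 0.01 read), so reads were recovered. The study's methods name limma on normalized data, which needs replicates, so differences here were given by size only. Fold changes were on the log2(FPKM + 0.1) scale, with 2-fold as limit. Ratio intervals were exact conditional binomial (Clopper-Pearson, 95%) and level intervals exact Poisson (scipy 1.17.1), tested on simulated data. Columns of other samples numbered 0.

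The members, classes, partner list and 14 marker lists were chosen with earlier results of these data known. The other marker sums (oe-circ, oe-pep, vehicle, FPKM) were 72.8, 71.5 and 71.3 for pericytes and smooth muscle, 109.6, 109.4 and 108.3 for endothelium, 9.69, 21.4 and 10.02 for choroid plexus, 7.36, 13.7 and 5.57 for ependyma, 311, 403 and 275 for blood, and 10.8, 8.16 and 6.85 for meninges. The rule named members past 2-fold at a mean of 20 reads or more, the 5 highest of each class, members with an interval past 5 to 4, and Kcna5, Kcnj5, Kcne3 and Kcna10, which the study's tables hold. Other members were added to describe subfamilies after their values were seen. Alternatives were other pseudocounts, filters on low values and median-ratio scaling. Near-identical copies were searched with minimap2 2.31-r1302, and Kcnmb4 alone had a match, Kcnmb4os2. That is an antisense gene overlapping Kcnmb4 on the opposite strand, so it is not a copy at another locus. The values of 4 members and 1 sequence are not reported here by name.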

Additional observations from a re-analysis of the deposited data

How the results depend on the processing

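Under the 7 alternatives the median log2 fold change of the members ranged from 0.05 to 0.09 in oe-circ over vehicle, 0.03 to 0.04 in oe-pep over vehicle and 0.02 to 0.05 in oe-circ over oe-pep. Median-ratio scaling shifted fold changes by at most 0.0043 on the log2 scale. The class medians within 0.1 of 0 could change sign, as those of the calcium-activated and auxiliary classes did in oe-circ over vehicle, to 0.08 and 0.02 at a mean of at least 1 FPKM. The two-pore median fell as low as 0.0868 in oe-circ over vehicle, where the inward rectifier median reached 0.0878. In oe-pep over vehicle it fell as low as 0.0423, where the auxiliary median reached 0.0437. The first place of the two-pore class was thus not kept in every setting. Counts of members past 2-fold, which were 1 lower (Kcna5) in oe-circ over vehicle, 1 lower (Kcne3) in oe-pep over vehicle, and 1 lower and 1 higher in oe-circ over oe-pep, moved with the treatment of low values. With a pseudocount of 0.01, oe-circ over vehicle had 3 lower and 1 higher, oe-pep over vehicle 2 lower and oe-circ over oe-pep 2 lower. With no filter on low values the counts were 2 lower and 1 higher in oe-circ over vehicle, 2 lower in oe-pep over vehicle, and 2 lower and 2 higher in oe-circ over oe-pep, and 2 members in place of 1 had an interval past 5 to 4 on the lower side in oe-pep over vehicle. With a pseudocount of 1, a mean of at least 1 FPKM or a mean of at least 20 reads, 0 were lower in oe-pep over vehicle and 0 higher in oe-circ over oe-pep. At 200 reads or more on average, chosen after seeing the data, 0 were past 2-fold in each comparison and 0 had an interval past 5 to 4 on the lower side in oe-pep over vehicle, because Kcna5 has fewer reads. Over all genes, 2004 were past 2-fold in oe-circ over vehicle, against 223 with a pseudocount of 1, 199 at 20 reads or more and 3013 with no filter. In oe-pep over vehicle these counts were 1912, 216, 109 and 3068, and in oe-circ over oe-pep 2135, 251, 182 and 3205. Kcna5 in oe-circ over vehicle lay between -2.30 and -1.54 over the alternatives, and Kcnj5 between -1.60 and -0.21. No paired analysis was possible because each group had 1 library, and for the same reason no library could be left out. Depth limits the low members, since 4 of 77 averaged under 20 reads.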

Other observations

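The 15 genes of the name rule that lay under the minimum mean of 0.1 FPKM had at most 14 reads in any library. Nearest to the minimum were Kcnk15, with 6 reads in oe-circ, 0 in oe-pep and 3 in vehicle, Kcnn4, the intermediate-conductance calcium-activated channel of blood and immune cells, with 4, 5 and 14, and Kcnj13, an inward rectifier of epithelia, with 3, 2 and 0. Their mean levels were 0.0956, 0.0867 and 0.0855 FPKM, while Kcne3, Kcnj5 and Kcnk5 lay just above it at 0.130, 0.131 and 0.176 FPKM. Kcna10 had 1, 0 and 6 reads in oe-circ, oe-pep and vehicle, so it was at least 1.81-fold lower in oe-pep than in vehicle with 3 reads taken as the limit of a library with 0, and the exact interval, which also covers the error of the 6 vehicle reads, starts at 1.07-fold. Its ratio in oe-circ was 0.212 with a counting interval of 0.00461 to 1.75. Kcne1, Kcnj1, Kcnk16, Kcnk18 and Kcnv2 had 0 reads in all 3 libraries, which allows up to 3 reads in each.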
